A study of Mus musculus with 15 samples.

Results

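The antioxidant enzymes described here are 9 genes: the superoxide dismutases Sod1 and Sod2, catalase (Cat), the glutathione peroxidase Gpx4, and the peroxiredoxins Prdx1, Prdx2, Prdx3, Prdx5 and Prdx6. They were taken by gene symbol, and 11 of their 48 annotated transcripts were listed in the deposited table, out of 10370 transcripts of 7740 annotated genes. Prdx2 had 3 listed transcripts and each of the other genes had 1. The RNA came from dissected cortex of male C57BL/6 mice, with an age of 12 weeks on the labels, taken 1 month after the end of a high-frequency series of head impacts (HF-HI, 8 libraries) or of a Sham procedure (7 libraries). HF-HI mice received impacts under isoflurane on successive days. Sham mice went through the same handling without impacts, so the daily isoflurane was shared by both groups.

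Superoxide leaks from the mitochondrial electron transport chain and is formed by oxidases in the cytosol. Superoxide dismutases turn it into hydrogen peroxide, and catalase, glutathione peroxidases and peroxiredoxins reduce the peroxide to water. Neurons consume much oxygen and their membranes are rich in polyunsaturated lipids, and the enzymes are spread over cell compartments: Sod1, Prdx1, Prdx2 and Prdx6 lie mainly in the cytosol, Sod2 and Prdx3 in the mitochondrial matrix, Cat in peroxisomes, and Prdx5 in several of these.

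Peroxiredoxins act through a cysteine that is oxidized by the peroxide, and Gpx4 through selenocysteine, which is encoded by a TGA codon read in frame. The coding stretches around these residues are shown because they show what the genes have in common and how Gpx4 differs. They are spliced coding sequences on the sense strand of the listed transcripts (GENCODE M21, GRCm38). The capitals mark the codons of the peroxidatic motif, which end with the cysteine codon, or the TGA codon of Gpx4.
Prdx1 (chr4:116691790-116691837, plus strand): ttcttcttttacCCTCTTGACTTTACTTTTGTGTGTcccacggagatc
Prdx2 (chr8:84970450-84970497, plus strand): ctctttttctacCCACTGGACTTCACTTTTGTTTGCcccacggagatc
Prdx3 (chr19:60870115-60871442, minus strand, across an intron): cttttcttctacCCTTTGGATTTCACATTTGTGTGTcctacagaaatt
Prdx5 (chr19:6907668-6908023, minus strand, across an intron): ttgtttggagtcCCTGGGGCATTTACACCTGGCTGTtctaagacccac
Prdx6 (chr1:161247356-161247403, minus strand): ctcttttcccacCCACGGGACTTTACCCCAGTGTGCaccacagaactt
Gpx4 (chr10:80054725-80054751, plus strand): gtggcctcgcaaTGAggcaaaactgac

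Of the 24 capital bases, Prdx1 shared 19 with Prdx2 and 19 with Prdx3, but 14 with Prdx5. Over the aligned bases of the coding sequences, Prdx1 and Prdx2 were 70.0% identical and Prdx1 and Prdx3 65.7%. Prdx5 and Prdx6 were the least alike pair, at 45.1%. The cysteine was encoded by codon 52 in Prdx1 and codon 109 in Prdx3, whose coding sequence of 257 codons is longer than the 199 of Prdx1. The TGA of Gpx4 was codon 73 of 197. Transcript copies with at least 95% identity over at least 200 bases existed in other annotated genes for Sod1 (1 gene), Gpx4 (2), Prdx1 (2) and Prdx2 (1), and reads of these members could have been divided with them, although none of the copies was itself listed. Prdx5 shares 360 bases with Trmt112 on the opposite strand, and the strand setting of the counting is not given in the sources used here.

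The antioxidant response element, bound by the stress-induced factor Nrf2, was searched as TGACNNNGC on both strands of RefSeq promoter windows (GRCm38.p6, 250 bases before to 50 bases after each start). The 8 genes with a window had 11 windows in all, and 2 of the 11 held a match, one of Sod1 and one of Prdx1. Of all 32851 windows, 12.4% did. The matches, in capitals and on the strand opposite to the gene, began 133 bases upstream of the start in Prdx1 and 56 bases upstream in Sod1, counted to the motif base farthest from the gene.
Prdx1 (chr4:116685451-116685489): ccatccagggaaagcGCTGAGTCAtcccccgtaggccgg
Sod1 (chr16:90220691-90220729): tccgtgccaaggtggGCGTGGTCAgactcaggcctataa

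Sham libraries held 5798810 to 10582858 recovered reads over the listed transcripts, and HF-HI libraries 3496103 to 8666307. The members took between 0.105% and 0.124% of the normalized counts listed in a library. Cat had the fewest reads, 128 in HF-HI replicate 4 (a counting error of 8.84%), and Sod2 the most, up to 2464 reads. Marker genes were used to check the tissue label. All 6 neuronal, 6 astrocytic, 5 oligodendrocyte and 5 microglial markers were listed, with 3 of 4 of the endothelium, while Kl, Folr1 and Clic6 of the choroid plexus list were not. Of 6 markers of the striatum, which lies beneath the cortex, 5 were listed as well (all but Drd2), summing to 2365 to 4163 normalized counts in Sham and 2034 to 3910 in HF-HI. All 5 had a log2 difference below 0, with a median of −0.20, and Penk was called lower (−0.30, limma unadjusted p = 0.0261). Snap25 of the neuronal list was called higher (0.13, limma unadjusted p = 0.0149) and P2ry12 of the microglial list lower (−0.23, limma unadjusted p = 0.0247). Of the 6 neuronal genes, 3 had a log2 difference above 0 and 3 below, with a median of 0.0084. Of the 5 microglial genes, 1 lay above 0 and 4 below, with a median of −0.05. Among all genes, 9.94% were called at this threshold. No endothelial gene was called. Of the 3 listed, 1 had a log2 difference above 0 and 2 below, with a median of −0.17. Ttr, a choroid plexus gene, was above 1000 normalized counts in 4 libraries, replicates 1 and 2 of Sham and replicates 2 and 5 of HF-HI. HF-HI replicate 2 lay at 12.6 on the first principal component, while the others lay between −3.35 and 0.721.

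Per kilobase of annotated transcript length, Gpx4 was the most abundant member, with 1549 ± 171 normalized counts per kb (SD over all 15 libraries), followed by Sod1 with 1353 ± 75.5. Prdx2 (778 ± 56.6) and Prdx5 (739.7 ± 59.96) came next, then Prdx6 (385 ± 28.7) and Sod2 (280.4 ± 19.6). Prdx1 (232 ± 25.2) and Prdx3 (222 ± 19.6) were close together, and Cat had the lowest level, 98.2 ± 7.17 per kb. Gpx4 stood above Sod1 in 14 of 15 libraries, Prdx2 above Prdx5 in 12, and Prdx1 above Prdx3 in only 9, so the members of these 3 pairs, whose ranges overlap, were less well separated than the rest, together with Sod2 and Prdx1 (Sod2 higher in 14). Sod1 exceeded Prdx2, Prdx5 exceeded Prdx6, Prdx6 exceeded Sod2 and Prdx3 exceeded Cat in every library. These levels use the full annotated length and were not corrected for fragment length, which weighs most on Sod1, the shortest transcript at 641 bases.

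**Figure D1:**
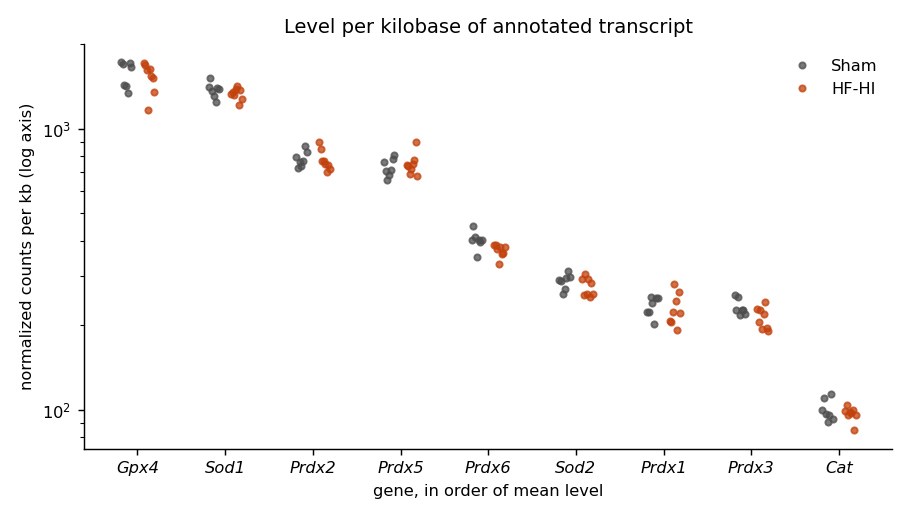
Level of each gene in normalized counts per kilobase of annotated transcript (log axis), a point per library, Sham in grey (7) and HF-HI in orange (8), with genes in order of their mean. Gpx4 and Sod1 lie above 1000, Cat lies near 100, and within each gene the groups overlap.

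The comparison asked whether cortical transcripts of these enzymes differed 1 month after HF-HI. Levels of all 9 genes lay close together in Sham and HF-HI, with differences in the gene sums from −8.49% (Prdx3) to 2.19% (Prdx5). Prdx6 fell by 0.12 on the log2 scale and Prdx3 fell by 0.13, each at an unadjusted p under 0.05, and the other 7 did not pass that test. Without the 4 libraries of high Ttr, an alternative chosen after seeing the data, neither was called. Prdx3 then had a log2 difference of −0.11, and with these fewer libraries 579 genes of the table were called, against 769 with all. No member passed the adjusted threshold of 0.1. Across the 9 genes, the 95% intervals from limma reached no lower than −16.2% and no higher than 11.0%. The median log2 difference was −0.04 over the members and −0.0056 over all 7740 genes.

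Of the gene sums, 2 of 9 were called at an unadjusted p under 0.05, against 9.94% of all genes. Both calls were lower, a direction in which 4.53% of all genes were called, and none was higher, against 5.4%. Of the 11 transcripts on the deposited variance-stabilized scale, 1 was called (Prdx6), which is 9.09%, against 8.83% of all 10370 transcripts with 3.9% lower and 4.94% higher. The share of member transcripts is therefore near the background. That of the gene sums, 22.2%, is above it but rests on 2 genes, of which Prdx3 lies at the threshold. Except for Prdx2, each gene sum is the estimate of 1 listed transcript. The 2 scales then share their counts, and transcripts that were not listed are not included. In limma, 0 transcripts and 0 genes of the whole table had an adjusted p under 0.1, while 916 transcripts and 769 genes had an unadjusted p under 0.05. With voom on the recovered reads, 0 transcripts and 1 gene passed the adjusted threshold, and 878 transcripts and 730 genes the unadjusted one. Groups overlapped for all 9 genes, which is a description only, because the share of all genes with overlapping groups was not counted. P-values measure the spread between these libraries, which the labels give as separate samples without saying that each is a separate animal, so that the spread may be technical.

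**Figure D2:**
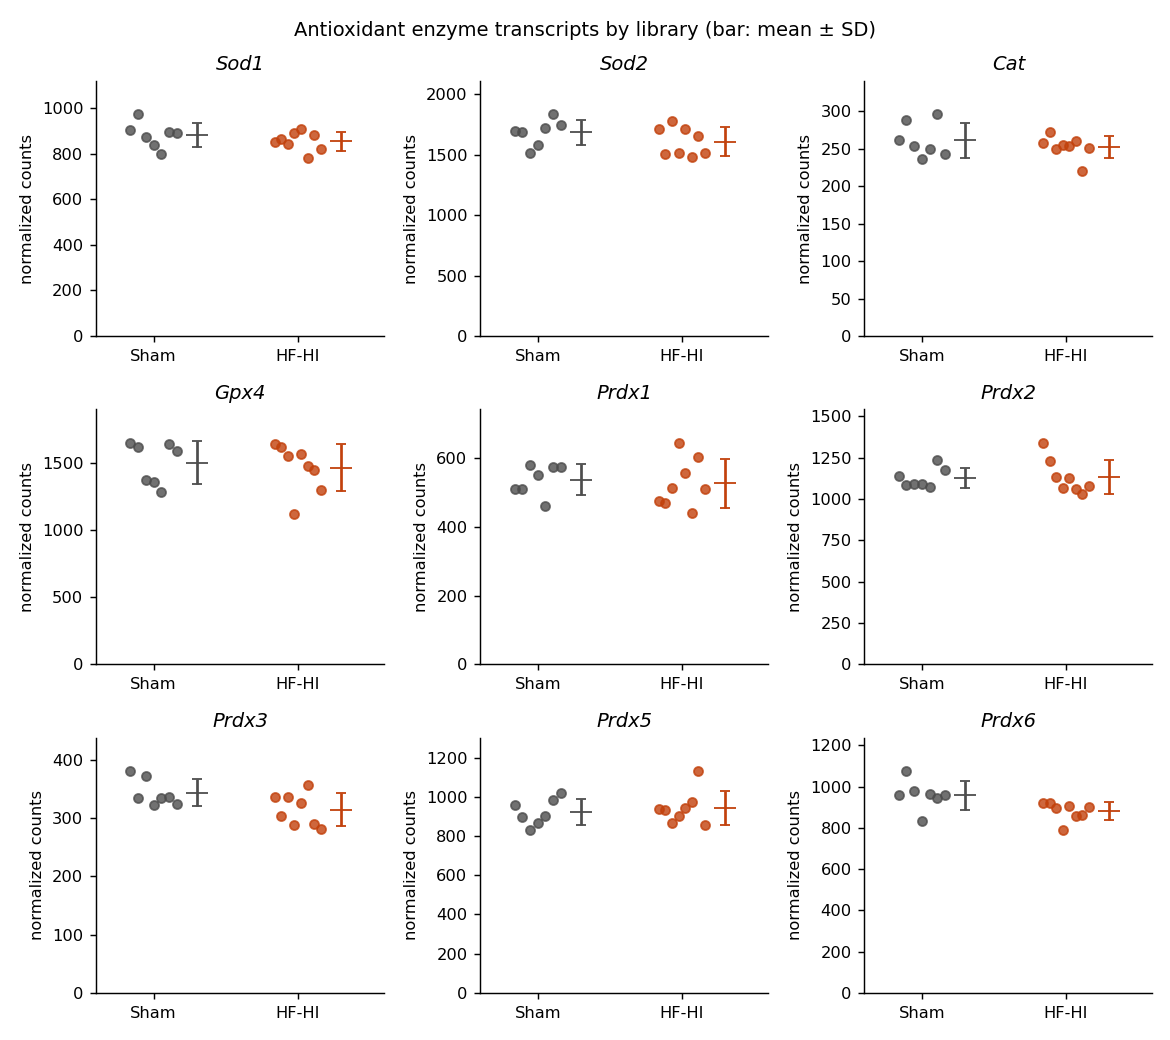
Normalized counts summed over the listed transcripts of each gene, a point per library, 7 Sham (grey) and 8 HF-HI (orange), with the mean ± SD beside the points and axes that start at 0. In the Prdx6 panel no HF-HI library lies above the Sham median, and in every panel the groups overlap.

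Sod1 (ENSMUST00000023707, chromosome 16, 90220754 to 90226329, 5 exons), the copper and zinc superoxide dismutase of the cytosol, had 799 normalized counts in the lowest Sham library, a median of 890.4 and a highest value of 973. In HF-HI the lowest, median and highest values were 779, 858 and 910. The groups overlapped almost wholly, although the Sham median exceeded 7 of the 8 HF-HI values. The log2 difference was −0.04 (95% interval −0.13 to 0.04, limma unadjusted p = 0.305).

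Sod2 (ENSMUST00000007012, chromosome 17, 13007817 to 13020134, 5 exons), the manganese enzyme of mitochondria, had a lowest, median and highest value of 1516, 1696 and 1834 in Sham, and of 1481, 1583 and 1777 in HF-HI. Of the HF-HI libraries, 4 lay between 1481 and 1516, below every Sham library, and the other 4 between 1651 and 1777. The log2 difference was −0.07 (−0.17 to 0.04, limma unadjusted p = 0.187).

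Cat (ENSMUST00000028610, chromosome 2, 103453849 to 103485160, 13 exons), the peroxisomal enzyme that splits hydrogen peroxide into water and oxygen, ranged from 236 to 296 with a median of 253 normalized counts in Sham. HF-HI values ran from 221 to 272 with a median of 255. The groups overlapped with nearly equal medians, and the log2 difference of −0.04 had an interval of −0.17 to 0.08 (limma unadjusted p = 0.466).

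Gpx4 (ENSMUST00000105372, chromosome 10, 80053488 to 80056439, 7 exons) reduces lipid peroxides within membranes and is the main brake on ferroptosis, a form of cell death driven by iron and lipid peroxides. It had 1283 normalized counts in the lowest Sham library, a median of 1595 and a highest value of 1653, and 1122, 1518 and 1646 in HF-HI. Among the members it had the largest spread in Sham, a coefficient of variation of 10.6%, against a median of 7.49% over all genes. Its log2 difference was −0.04 (−0.21 to 0.13, limma unadjusted p = 0.635), and without HF-HI replicate 4, the lowest library, it was 0.015.

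**Figure D3:**
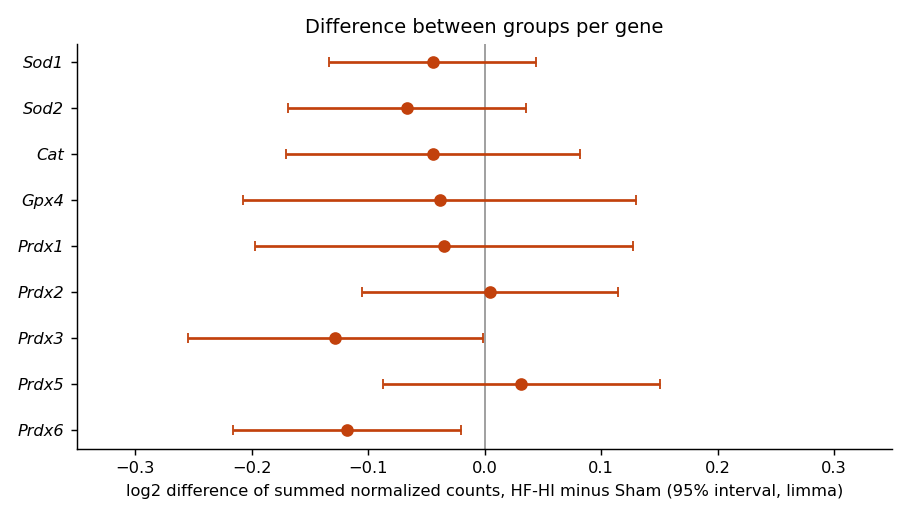
Log2 difference of summed normalized counts per gene, HF-HI minus Sham, with 95% intervals from limma over 7 Sham and 8 HF-HI libraries. The intervals of Prdx3 and Prdx6 lie below 0 and those of the other 7 genes include 0.

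Prdx6 (ENSMUST00000071718, chromosome 1, 161240112 to 161251219, 5 exons) works with a single active cysteine and glutathione, reduces oxidized phospholipids, and in brain is known mainly from astrocytes. It had 833 normalized counts in the lowest Sham library, a median of 958 and a highest value of 1075, against 789, 899 and 922 in HF-HI. The Sham median exceeded all 8 HF-HI values, and 6 of 7 Sham libraries lay above every HF-HI library, the exception being Sham replicate 4. The mean fell from 959 ± 70.8 to 882 ± 44.4 (SD), a log2 difference of −0.12 (95% interval −0.22 to −0.02, limma unadjusted p = 0.0211, adjusted p = 0.413). On the variance-stabilized (VSD) scale the difference was −0.05 ± 0.02 (SE, limma unadjusted p = 0.0255, adjusted p = 0.514).

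The Prdx6 call was lost in several alternatives. The limma unadjusted p of the gene sum was 0.0569 without Sham replicate 2, that of the VSD difference was 0.0516 without HF-HI replicate 4, and the gene sum had 0.1001 with library depth as a covariate. The log2 difference of the gene sum ran from −0.15 to −0.09 when single libraries were left out. In the other alternatives, depth among them, it ran from −0.12 to −0.10. HF-HI libraries were on the whole shallower, with size factors of 0.501 to 1.22 against 0.818 to 1.47 in Sham. Without the libraries of high Ttr the log2 difference was −0.10 (limma unadjusted p = 0.0741). Of 6 astrocyte markers, all were listed, 1 was called lower (Aldoc, log2 difference −0.14, limma unadjusted p = 0.00396, and 0.124 with depth as a covariate) and none was called higher. Of the 6 log2 differences, 2 were above 0 (Slc1a2 0.05 and Gja1 0.02) and 4 below, with a median of −0.03. Sham libraries had 50746 to 52875 normalized counts over the whole list and HF-HI libraries 50097 to 55920. Most of this sum was Slc1a2, with a mean of 32027 in Sham and 33184 in HF-HI. The striatal, neuronal and microglial lists each held 1 called gene as well, at a threshold that 9.94% of all genes passed. No marker passed the adjusted threshold of 0.1. The part of these cell types and of dissection in the Prdx6, Prdx3 and Slc7a11 differences was not tested. In bulk tissue fewer cells of a type cannot be told apart from less RNA per cell.

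Prdx3 (ENSMUST00000025961, chromosome 19, 60864051 to 60874556, 7 exons), the peroxiredoxin of the mitochondrial matrix, which is recycled by mitochondrial thioredoxin, had 322 normalized counts in the lowest Sham library, a median of 334 and a highest value of 379.9. In HF-HI these were 281, 314 and 357. The groups overlapped, with 4 of 8 HF-HI libraries below every Sham library and 3 above the Sham median. The gene level had a log2 difference of −0.13 (−0.25 to −0.0013, limma unadjusted p = 0.0479, adjusted p = 0.497). The call lies at the threshold: its limma unadjusted p was 0.0570 on the VSD scale, and 0.191 for the gene sum once depth entered as a covariate, at a log2 difference of −0.10. Omitting a single library ended the call in 9 of 15 cases, namely replicates 1, 2, 3, 5 and 6 of Sham and 2, 4, 7 and 8 of HF-HI, with a limma unadjusted p of at most 0.112. Without the libraries of high Ttr it was 0.179, at a log2 difference of −0.11.

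Prdx1 (ENSMUST00000135573, chromosome 4, 116685544 to 116700822, 6 exons), a cytosolic peroxiredoxin that Nrf2 is known to induce, had a lowest, median and highest value of 462, 551 and 579.7 normalized counts in Sham, and of 441, 511 and 645 in HF-HI. HF-HI libraries lay on either side of the Sham range, with 2 above and 1 below all Sham values, and had a coefficient of variation of 13.3% against 8.30% in Sham. The log2 difference was −0.03 (−0.20 to 0.13, limma unadjusted p = 0.659). Prdx5 (ENSMUST00000025904, chromosome 19, 6906706 to 6910106, 6 exons), found in mitochondria, peroxisomes and the cytosol, had 829.2, 903 and 1021 in Sham, and 857, 933 and 1131 in HF-HI, where 6 of 8 libraries exceeded the Sham median. The groups overlapped. Its log2 difference was 0.03 (−0.09 to 0.15, limma unadjusted p = 0.586).

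Prdx2, the abundant cytosolic peroxiredoxin of neurons and red blood cells, had the smallest difference of the gene sums. Its 3 transcripts together had 1073 normalized counts in the lowest Sham library, a median of 1090.2 and a highest value of 1237, against 1033, 1104 and 1340.2 in HF-HI, and 4 HF-HI libraries lay on either side of the Sham median. The log2 difference was 0.0046 (−0.11 to 0.11, limma unadjusted p = 0.931). Of the red blood cell list, Hba-a1, Hba-a2 and Hbb-bs were listed and Hbb-bt and Alas2 were not. The list summed to 483 to 1136 normalized counts in Sham and 541 to 1175 in HF-HI. Of its 3 listed genes 0 were called, against 9.94% of all genes, and all 3 had a log2 difference above 0, with a median of 0.25. The part of red blood cells in the Prdx2 level was not tested.

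Beneath this steady sum, the 3 Prdx2 transcripts were divided very differently from library to library. All encode the same coding sequence on chromosome 8. Prdx2-201 (ENSMUST00000005292, 84969611 to 84974834) and Prdx2-208 (ENSMUST00000164807, 84970239 to 84974660) have 0 exonic bases that the other 2 lack, and Prdx2-203 (ENSMUST00000109734, 84969587 to 84974834) has 111 of its own. Prdx2-208 held 2.80% to 29.6% of the gene's normalized counts in Sham and 0.0728% to 32.1% in HF-HI, the lowest being 1 read in HF-HI replicate 5. It was highest in HF-HI replicates 4 and 7 and Sham replicate 5, and lowest in HF-HI replicate 5, Sham replicate 2 and HF-HI replicate 8, so both ends of the range held libraries of both groups.

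Prdx2-201 was low where Prdx2-208 was high. Across the 15 libraries their normalized counts had a Pearson's r of −0.834 and a Spearman's rho of −0.882. Within Sham the r was −0.839 and within HF-HI −0.83, and without the 2 libraries farthest from the median it was −0.866. These values are a description, with no p. Every exonic base of both lies in another of the 3 transcripts, their counts are estimates of how shared reads divide, and with a steady sum such a division gives a negative sign by construction. Prdx2-203 had an r of −0.270 with Prdx2-208 (rho = −0.304) and of 0.113 with Prdx2-201 (rho = 0.214).

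The share of Prdx2-208 averaged 17.6% ± 9.26 in Sham and 12.2% ± 12.8 in HF-HI (exact two-sided permutation p = 0.358, adjusted p = 0.489 over 3 isoforms). Prdx2-201 averaged 71.3% ± 10.5 and 75.3% ± 11.6 (exact permutation p = 0.489), and Prdx2-203 11.1% ± 2.68 and 12.5% ± 3.6 (exact permutation p = 0.398). The differences lay within the spread between libraries. As VSD differences, Prdx2-208 had −0.17 (limma unadjusted p = 0.197), and with depth as a covariate −0.37 (limma unadjusted p = 0.0111, adjusted p = 0.858).

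**Figure D4:**
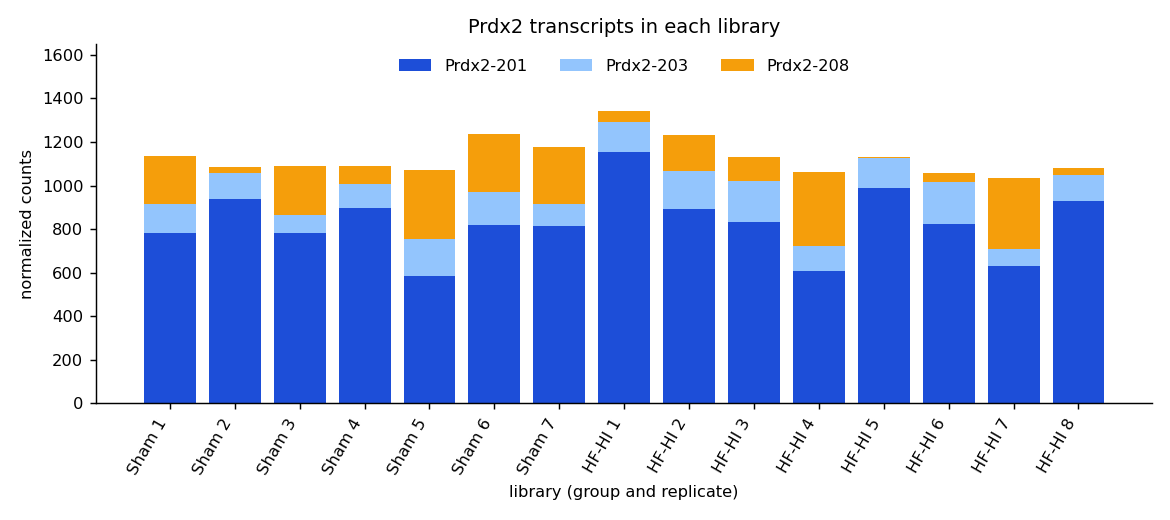
Normalized counts of the 3 listed Prdx2 transcripts in each library, stacked, with 7 Sham and 8 HF-HI libraries along the axis. The total stays between 1033 and 1340.2 while the share of Prdx2-208 (orange) runs from 0.0728% to 32.1%.

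The members act within a wider network. Glutathione is made from cystine, which the antiporter Slc7a11 imports, and is kept reduced with NADPH, as are the thioredoxins that recycle the peroxiredoxins. A list of 50 further genes of this network had 30 listed, with 31 transcripts. Of these 31, 0 were called higher and 1 lower at an unadjusted p under 0.05 (Slc7a11), against 4.94% higher and 3.9% lower among all transcripts, so the list held no more calls than the background. The median log2 difference of its 30 gene sums was −0.02, beside −0.0056 over all genes. Nfe2l2, which encodes Nrf2, and its targets Nqo1, Hmox1 and Srxn1 were not listed and are not analysed here.

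Slc7a11 had 652 normalized counts in the lowest Sham library, a median of 721 and a highest value of 793, against 513, 615 and 734 in HF-HI. In HF-HI, 5 of 8 libraries lay below every Sham library and 1 above the Sham median. It fell by 0.22 on the log2 scale (95% interval −0.37 to −0.06, limma unadjusted p = 0.00863, adjusted p = 0.337). The call held whichever of the 15 libraries was omitted, and was lost without the libraries of high Ttr (log2 difference −0.20, limma unadjusted p = 0.0584) and with depth as a covariate, where the log2 difference was −0.08 (limma unadjusted p = 0.254). Slc7a11 in brain is known from astrocytes, whose markers are given beside Prdx6.

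None of 12 genes of glutathione synthesis, reduction and transfer was called, and their log2 differences ran from −0.10 (Glrx5) to 0.06 (Gstp1). Gclc and Gclm, the subunits of the rate-limiting enzyme of glutathione synthesis, had 0.02 and −0.05, and Gsr, which regenerates reduced glutathione, had 0.03. In the thioredoxin system 0 of 6 genes were called, with −0.03 for cytosolic Txn1, −0.11 for mitochondrial Txn2, the electron donor of Prdx3, and −0.0033 for the reductase Txnrd1.

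Among 7 genes of the Nrf2 pathway, Keap1, the adaptor that marks Nrf2 for degradation, had a log2 difference of −0.12 and Bach1, a repressor of Nrf2 targets, had 0.18 (limma unadjusted p = 0.0509). The ferritin chains Fth1 and Ftl1, which store iron, had −0.0036 and −0.07. Of 4 listed genes of NADPH supply none was called, and G6pdx, the entry enzyme of the pentose phosphate pathway, had the largest difference, −0.16 (limma unadjusted p = 0.0648). Gpx1, which like Gpx4 is a selenoenzyme, was the single listed gene of the remaining group, with −0.12 (limma unadjusted p = 0.145).

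**Figure D5:**
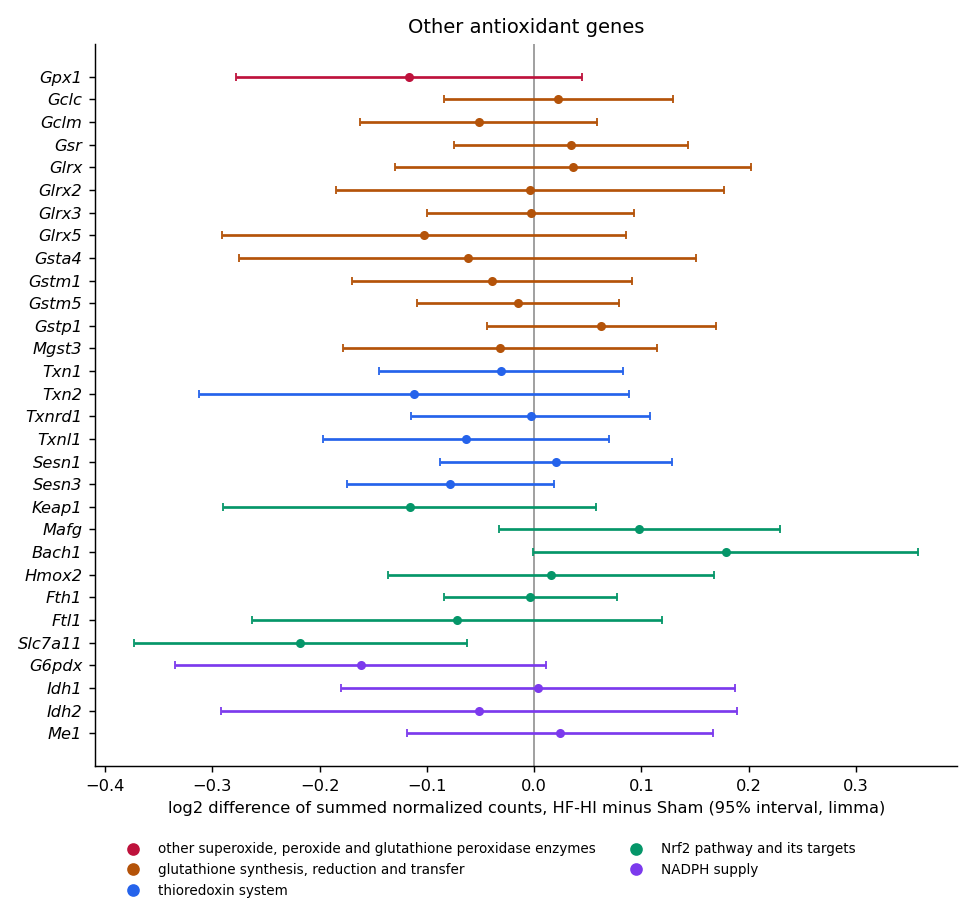
Log2 difference of summed normalized counts, HF-HI minus Sham, with 95% intervals from limma for the 30 listed genes of the wider antioxidant network, coloured by group. The interval of Slc7a11 lies below 0 and those of the other 29 include 0.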

How the data were processed

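Total RNA of cortex was sequenced in 7 Sham and 8 HF-HI libraries. Per the study's methods, the authors aligned reads to mm10 with STAR, estimated counts per transcript with eXpress and normalized them with DESeq2. The deposited table holds their variance-stabilized values (VSD, close to a log2 scale only at high counts) for 10370 transcripts. The annotation release is not given in the sources used here. GENCODE M21 matched 10241 of them.

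The transformation was inverted from the shared value of a count of 0 (VSD 9.81), which gave normalized counts, and 100% of values were whole reads within a tolerance of 0.1. VSD compresses low counts: a doubling adds 0.33 from 300 normalized counts, 0.53 from 1000 and 0.89 from 10000. At the levels of the members a VSD difference is thus smaller than a log2 difference. For this reason log2 differences of counts summed per gene, with a pseudocount of 1, were tested as well. Tests were linear models in limma 3.58.1 (R 4.3.3), two-sided, with group as the term, eBayes with trend and Benjamini-Hochberg adjustment over all transcripts or genes, at the study's 0.1. Isoform shares were tested by exact permutation. The code was tested on simulated data.

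Named were all listed member transcripts and other antioxidant genes at an unadjusted p under 0.05. The remaining antioxidant genes named were chosen after their values were seen. Members and lists were chosen with earlier results of these data known. Alternatives changed the eBayes prior, scaling, filter, pseudocount, depth covariate, replicate block and tool (voom), and left out single libraries or those of high Ttr.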

Additional observations from a re-analysis of the deposited data

Results flagged for a closer look

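Of 26 groups of libraries checked for an extreme value, 2 held one, and chance alone marks about 1 in 20. Cat was lowest in HF-HI replicate 7, with 221 normalized counts against 250.4 in the next library, and without that library its log2 difference was −0.02. Prdx5 was highest in the same library, with 1131 normalized counts against 974 in the next, and without it the log2 difference was −0.0067 in place of 0.03.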

How the results depend on the processing

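Over all listed transcripts, the count at an unadjusted p under 0.05 was 533 with depth as a covariate and 748 to 987 when single libraries were left out, and the count at an adjusted p under 0.1 was 0 to 1 (1 without Sham 5, HF-HI 2 or HF-HI 5). Of gene sums, 0 to 12 passed the latter when single libraries were left out (11 without Sham 4, 12 without Sham 5, 10 without HF-HI 2, 4 without HF-HI 5, 1 without HF-HI 8), 7 without low values and 3 after median centring, none of them a member. Leaving out single libraries gave 0 to 2 member transcripts (0 without Sham 2 or HF-HI 4, 2 without Sham 4 or HF-HI 1, 3 or 6), 0 to 2 member genes (0 without Sham 2), 1 to 3 other antioxidant transcripts (3 without Sham 5, 2 without Sham 1 or 2 or HF-HI 1, 5, 6 or 7) and 0 to 0 isoform shares. Median centring gave 2 member transcripts. Without the libraries of high Ttr there were 0 member transcripts and 0 member genes. Member genes numbered 1 with a robust prior, 1 without low values, 1 with voom and 0 with depth as a covariate. With a replicate block, over 14 libraries without HF-HI 8, 1 member gene and 2 other antioxidant transcripts were called, and Prdx3 lost its call (limma unadjusted p = 0.0664). Prdx3 was also not called over the same 14 libraries without the block (limma unadjusted p = 0.0963), at the same log2 difference of −0.11. The labels do not say whether the numbers pair the libraries, which were treated as unpaired. Same-numbered deviations correlated between −0.138 and 0.0905, and 3 of 14 libraries correlated best with their own number. Weak correlation cannot show that no pairing existed. Voom gave 2 other antioxidant transcripts. The direction turned for Gpx4 with depth as a covariate (0.031) and for Prdx2 without high Ttr (−0.024). Leaving out single libraries, log2 differences ran from −0.076 to 0.015 for Gpx4, −0.078 to 0.00035 for Prdx1, −0.031 to 0.027 for Prdx2 and −0.0067 to 0.056 for Prdx5. Where no cause is named, the cause was not tested. Prdx6, Prdx3, Sod1, Sod2 and Cat kept their sign under all alternatives run, but not their size: with depth as a covariate Sod2 had −0.0040 in place of −0.07, Sod1 −0.072 in place of −0.04 and Prdx1 −0.12 in place of −0.03. Leaving out single libraries, Sod1 ran from −0.068 (without Sham 5) to −0.021 (without Sham 2), Sod2 from −0.091 to −0.046 and Cat from −0.068 (without Sham 4) to −0.014 (without Sham 6). The depth of HF-HI replicate 4 limits Cat and Prdx3 most, with counting errors of 8.84% and 8.33%.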

Other observations

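As a description, the likeness of the members to each other and to other genes was taken over the 15 libraries, from log2 gene sums centred within each group, with no p because the best of 7731 genes was chosen. The most alike gene was Cox4i1, a subunit of cytochrome c oxidase, for Prdx5 (Pearson's r = 0.885, Spearman's rho = 0.871) and Rpl8, a ribosomal protein gene, for Gpx4 (r = 0.898, rho = 0.868). For Sod1 it was Pgm1 (r = 0.833), for Sod2 Vapa (0.838), for Cat Maoa (0.835), for Prdx1 Slc35f3 (0.812), for Prdx2 Dynlt3 (0.852), for Prdx3 Acad9 (0.79) and for Prdx6 Mdh1 (0.821). Among the members themselves, 27 of 36 pairs had an r above 0, with a median of 0.239. Gpx4 was the most alike member for Sod2, Prdx2, Prdx3, Prdx5 and Prdx6. The highest r was Gpx4 with Prdx2 (0.634) and the lowest Prdx1 with Prdx3 (−0.452). All values come from the same 15 libraries, which differ in depth.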
